A study of Mus musculus with 36 samples.

Results

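CC chemokines are small secreted proteins named for a pair of neighbouring cysteines, and 10 of their genes were described here: Ccl2, Ccl3, Ccl4, Ccl5, Ccl6, Ccl7, Ccl8, Ccl9, Ccl17 and Ccl22. They were chosen by symbol, and all 10 were found among the 18116 genes of the female count table and the 18291 genes of the male one. RNA was sequenced from the left lungs of 36 wild-type C57BL/6 mice that were 8 weeks old at the first dose, 3 females and 3 males in each of 6 groups. The groups received saline, BP crude oil, the dispersants Corexit 9500 or Corexit 9527, or a dispersant mixed with oil (9500+oil and 9527+oil). Every mouse was dosed with 50 µL on days 0, 7 and 13 and killed on day 14. Oil and dispersants were mixed into Hank's salt solution and given at a 0.1 dilution. By the paper, oil alone was given as the saline phase after separation. The dispersants and their mixtures with oil did not readily separate and were given whole. The paper describes oropharyngeal aspiration where the series text names intratracheal instillation. By the series text, females and males were treated separately, so sex and the round of treatment cannot be told apart. Each mouse gave 1 library. Mice carry numbers within each sex, and values of a group are given in the order of these numbers.

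CC chemokines draw leukocytes along a concentration gradient through G protein-coupled receptors, and many of these receptors answer to several ligands. In the lung they are made by alveolar macrophages, dendritic cells, epithelium and fibroblasts. Ccl2 and Ccl7 bring Ccr2-bearing monocytes out of the blood. Ccl3, Ccl4 and Ccl5 draw T cells, NK cells and monocytes, and Ccl3 and Ccl5 act on Ccr1, the receptor of the rodent chemokines Ccl6 and Ccl9. Mouse Ccl8 acts on Ccr8. Ccl17 and Ccl22 are the ligands of Ccr4 on helper and regulatory T cells and are typical products of dendritic cells and of alternatively activated macrophages.

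The coding sequence shows what the family shares. Each gene has 1 in-frame pair of cysteine codons, which lies between codon 32 (Ccl8) and codon 57 (Ccl9) of the longest coding transcript in GENCODE M21 (build GRCm38). The windows of 9 members read 5′ to 3′ on the coding strand, with 12 bases on each side of the pair, which is in capitals. They are shown because the pair defines the family and the bases around it tell the members apart.
Ccl2: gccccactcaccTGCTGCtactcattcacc
Ccl7: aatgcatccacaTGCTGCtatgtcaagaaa
Ccl8: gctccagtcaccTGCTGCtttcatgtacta
Ccl4: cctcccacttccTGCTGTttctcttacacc
Ccl5: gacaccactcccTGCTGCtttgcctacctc
Ccl6: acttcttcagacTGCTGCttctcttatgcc
Ccl9: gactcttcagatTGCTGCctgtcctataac
Ccl17: gtaggccgagagTGCTGCctggattacttc
Ccl22: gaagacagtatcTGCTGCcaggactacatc
Ccl4 alone has a different second codon in the pair. Little of the remaining sequence is repeated from gene to gene. Of all 31-base words in the transcripts of each gene, none occurred in another member. Ccl9 shared 3.98% of its words with transcripts of other genes, Ccl6 1.02%, Ccl5 0.539% and the other 7 none.

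The members sit in 3 neighbourhoods of GRCm38. Ccl2 (chr11:82035571-82037453), Ccl7 (chr11:82045712-82047525) and Ccl8 (chr11:82115185-82116799) follow each other, with 8.3 kb between Ccl2 and Ccl7. A second group on the same chromosome holds Ccl5 (chr11:83525778-83530518), Ccl9 (chr11:83572919-83578636), Ccl6 (chr11:83587882-83593087), Ccl3 (chr11:83647844-83649355) and Ccl4 (chr11:83662584-83664683), and Ccl9 ends 9.2 kb from Ccl6. Ccl22 (chr8:94745590-94751699) and Ccl17 (chr8:94810453-94812036) lie 58.8 kb apart.

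RefSeq promoters (GRCm38.p6) were found for 6 members: Ccl3, Ccl6, Ccl8, Ccl9, Ccl17 and Ccl22. Those of the neighbours Ccl6 and Ccl9, which were the members with the smallest p in oil-treated males, and of Ccl17, which ranged from 0 to 43.5 CPM among females, are given here as the 250 bases before the start, read 5′ to 3′ on the strand of the gene. Capitals mark matches on either strand to 5 motifs: the box spelled TATAAA, the STAT motif TTCNNNNGAA, the PU.1 motif GAGGAA, the AP-1 motif TGANTCA and the NF-kB consensus.
Ccl6: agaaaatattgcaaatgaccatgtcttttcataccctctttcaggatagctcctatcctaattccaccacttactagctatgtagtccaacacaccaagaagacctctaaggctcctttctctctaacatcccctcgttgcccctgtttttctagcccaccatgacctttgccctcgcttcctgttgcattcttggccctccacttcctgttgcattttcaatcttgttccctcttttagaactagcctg
Ccl9: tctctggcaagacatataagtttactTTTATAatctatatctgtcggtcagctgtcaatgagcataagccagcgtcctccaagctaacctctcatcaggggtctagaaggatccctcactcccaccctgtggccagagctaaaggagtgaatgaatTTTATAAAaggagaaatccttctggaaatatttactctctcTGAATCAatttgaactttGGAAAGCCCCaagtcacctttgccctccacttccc
Ccl17: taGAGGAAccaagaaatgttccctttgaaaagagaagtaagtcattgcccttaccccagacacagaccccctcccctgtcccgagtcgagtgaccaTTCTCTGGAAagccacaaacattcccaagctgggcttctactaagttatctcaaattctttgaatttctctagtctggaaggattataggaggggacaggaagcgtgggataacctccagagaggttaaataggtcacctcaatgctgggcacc
The Ccl6 window, chr11:83593088-83593337 on the minus strand, held none of these letters. In the Ccl9 window, chr11:83578637-83578886 on the minus strand, TATAAA began 224, 94 and 92 bases before the start (the last 2 overlap on opposite strands), TGANTCA 53 bases and the NF-kB consensus 35 bases before it. The Ccl17 window, chr8:94810203-94810452 on the plus strand, held GAGGAA and TTCNNNNGAA at 248 and 154 bases before the start. Of all 32851 promoters, 12.4% held TATAAA, 5.85% TTCNNNNGAA, 23.3% GAGGAA, 6.75% TGANTCA and 3.90% the NF-kB consensus.

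Libraries held 17501180 to 30011557 counts. In 4 female libraries, saline mouse 3, oil mouse 6, Corexit 9527 mouse 11 and 9500+oil mouse 14, 20.7% to 45.1% of counts were mitochondrial, against 5.27% to 11.3% in the other 32. Saline mouse 3 stood farthest out, and it had 0 counts of Ccl3, Ccl4, Ccl8 and Ccl17, which allows up to 0.349 CPM (a gene's counts scaled by the effective size of its library). Corexit 9527 mouse 11 had 0 counts of Ccl8, which allows up to 0.317 CPM. These limits cover counting error only. Several comparisons that hold these 4 libraries are also given without them, while levels and marker sums are of all libraries. Markers of lung epithelium and endothelium summed to 13400 to 42300 CPM over all mice. The lowest sums were those of saline mouse 3 (13400) and Corexit 9527 mouse 11 (16700). The other saline females had 36100 and 35400 CPM. In whole lung, fewer cells of a type and less RNA per cell cannot be told apart.

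In saline lungs Ccl6 was the most abundant member per transcript length, at 85.6 ± 7.27 CPM per kb of exon in males and 89.9 ± 18.8 in females (SD, n = 3). Ccl5 followed in males at 15.2 ± 2.45 CPM per kb, then Ccl9 (6.89 ± 1.30), Ccl22 (5.26 ± 0.871) and Ccl17 (4.66 ± 1.42). Mice of neighbouring genes overlapped from Ccl9 to Ccl22 (5.42 to 7.91 against 4.56 to 6.24 CPM per kb) and from Ccl22 to Ccl17 (3.09 to 5.88), so the order within these 3 is not fixed by 3 mice. The remaining 5 lay between 0.648 (Ccl7) and 2.11 (Ccl3) CPM per kb. Saline females had Ccl5 at 9.95 ± 7.60, with mouse 3 the lowest, and the last 5 places ran from 1.92 (Ccl8) to 3.04 (Ccl7).

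**Figure D1:**
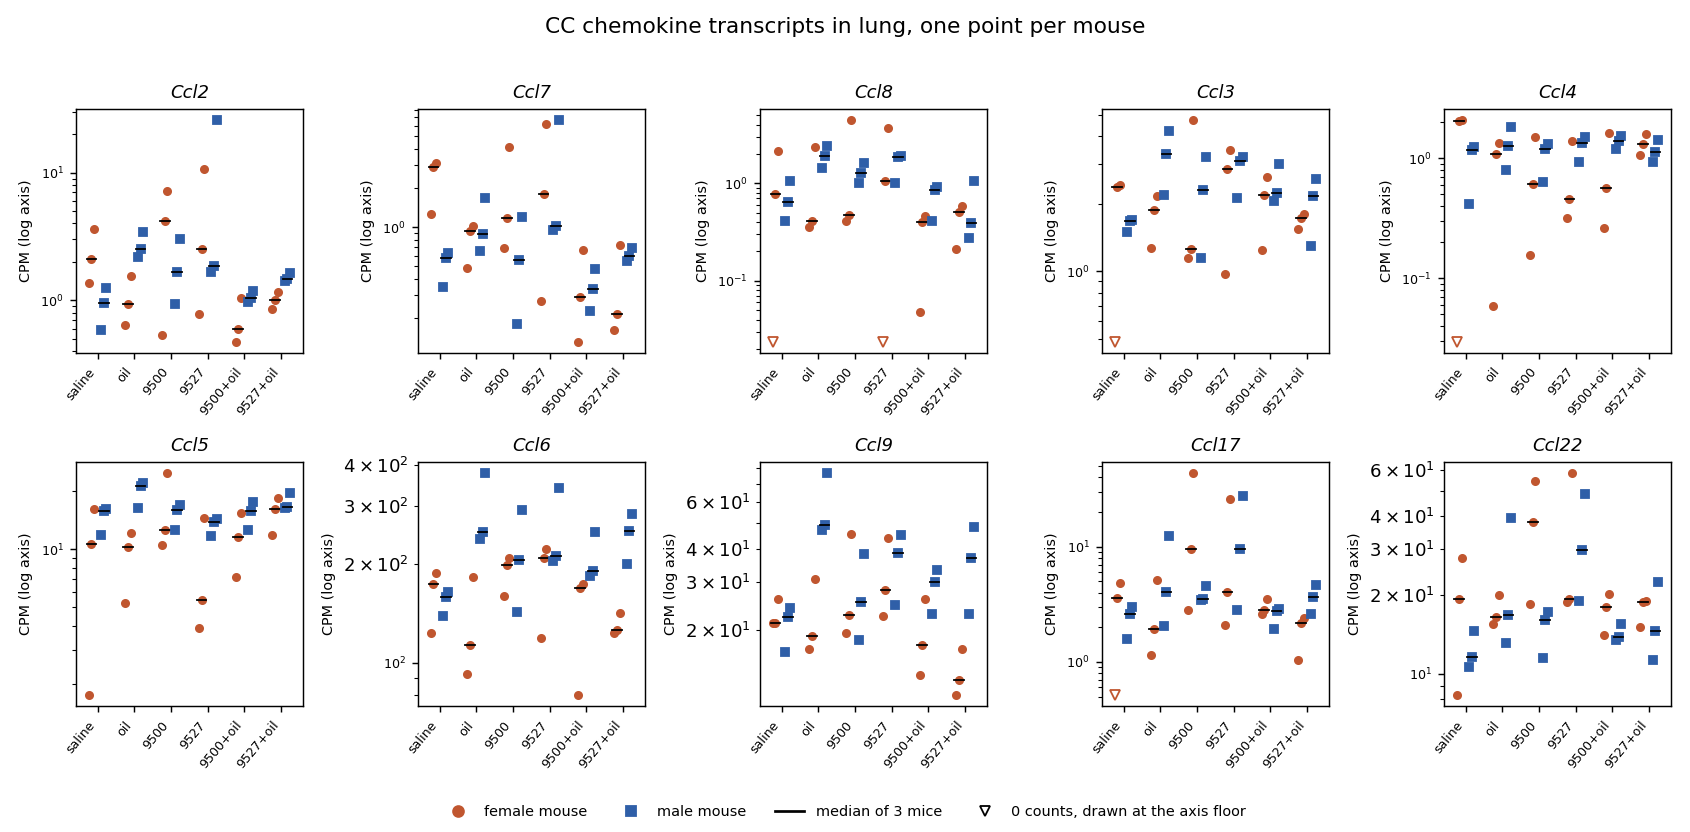
Level of each CC chemokine transcript in every mouse, in CPM on a log axis, by treatment and sex. Circles are females, squares males, black bars the median of 3 mice, and open triangles libraries with 0 counts. Single mice stand far above their group for Ccl2, Ccl7, Ccl17 and Ccl22, such as male Corexit 9527 mouse 11 with 26.0 CPM of Ccl2, while in oil-treated males Ccl6 and Ccl9 lie above saline in all 3 mice.

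The first question was which members differed from saline within a sex. With edgeR's quasi-likelihood test and an adjusted p under 0.05 as the call, none of the members passed in any of the 10 comparisons. In oil-treated males 7 of 10 members reached an unadjusted p under 0.05, all higher than saline and all but Ccl4, Ccl7 and Ccl17, where 8.21% of all genes tested did and 0.00671% were called. Corexit 9527 gave 8 of 10 in males, all but Ccl4 and Ccl5 and again all higher, against 13.7% of all genes with 0.114% called. The other treatments gave fewer in males. Corexit 9500 gave 1 of 10 (6.35% of all genes, 0.00662% called), 9500+oil 2 of the 9 tested (9.22%, 0% called) and 9527+oil 2 of 10 (5.54%, 0.00669% called). The share of members with Corexit 9500 is near that of all genes and is no result about the members, and the count moved with single mice. It was 5 (10.1% of all genes in that fit) without mouse 9 of that group, and 0 without saline mouse 1 (7.81%), mouse 7 (3.84%) or mouse 8 (3.06%). The count fell from 2 to 1 without mouse 13 (12.8%) or mouse 15 (5.98%) of the 9500+oil males, and without saline mouse 2 (4.41%) or mouse 18 (4.23%) for 9527+oil. DESeq2's Wald test called 2 members in oil-treated males (1.01% of all genes), 4 with Corexit 9527 (3.73%), 1 with 9527+oil (0.132%) and none with the other treatments.

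The median log2 fold change of the 10 members was 1.02 in oil-treated males, with all 10 higher than saline, against a median of −0.013 over all genes. It was 0.99 with Corexit 9527 (9 of 10 higher) and 0.42 with Corexit 9500 (all 10 higher), against −0.0093 and −0.0090 over all genes. With 9500+oil it was 0.22 over 9 members and with 9527+oil 0.35 over 10, against −0.0037 and −0.0038 over all genes. Counted by mice, every oil-treated male lay above every saline male for 7 members, where 7.44% of genes did so. It held for 6 members after Corexit 9527 (10.5% of genes) and for 1 after Corexit 9500 (6.35%). The mixtures had 2 (9500+oil, 7.84%) and 3 (9527+oil, 5.73%).

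In females the members that reached an unadjusted p under 0.05 were lower than saline, while the largest positive fold changes, those of Ccl17 with the dispersants alone, did not reach it. No member reached an unadjusted p under 0.05 with oil (0.108% of all genes), Corexit 9500 (0.364%) or Corexit 9527 (0.267%), and 2 did so with 9500+oil (0.155%) and 2 with 9527+oil (1.10%), all 4 lower than saline. These counts rest on few mice. Both were 0 without saline mouse 2 (0.234% and 3.35% of all genes in these fits), as was the first without 9500+oil mouse 13 (0.107%) or mouse 14 (0.0932%) and the second without 9527+oil mouse 16 (0.312%). The share of all genes called was 0% in each of these 5 comparisons, and DESeq2 called no member in any of them. The members' median log2 fold change was −0.11 for oil. For the dispersants it was 0.65 (Corexit 9500) and 0.52 (Corexit 9527), and for their mixtures −0.27 (9500+oil) and −0.47 (9527+oil). Over all genes these medians lay between −0.0067 (oil) and 0.095 (Corexit 9500). All these fits include saline mouse 3, which had 0 counts of Ccl3, Ccl4, Ccl8 and Ccl17. Medians without it are not given. Every treated female lay below every saline female for Ccl7 with oil (1.01% of genes), for Ccl2 and Ccl7 with 9500+oil (0.710%) and for Ccl2, Ccl7 and Ccl9 with 9527+oil (7.05%). There was no such member with Corexit 9500 (2.88% of genes) or Corexit 9527 (1.13%).

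**Figure D2:**
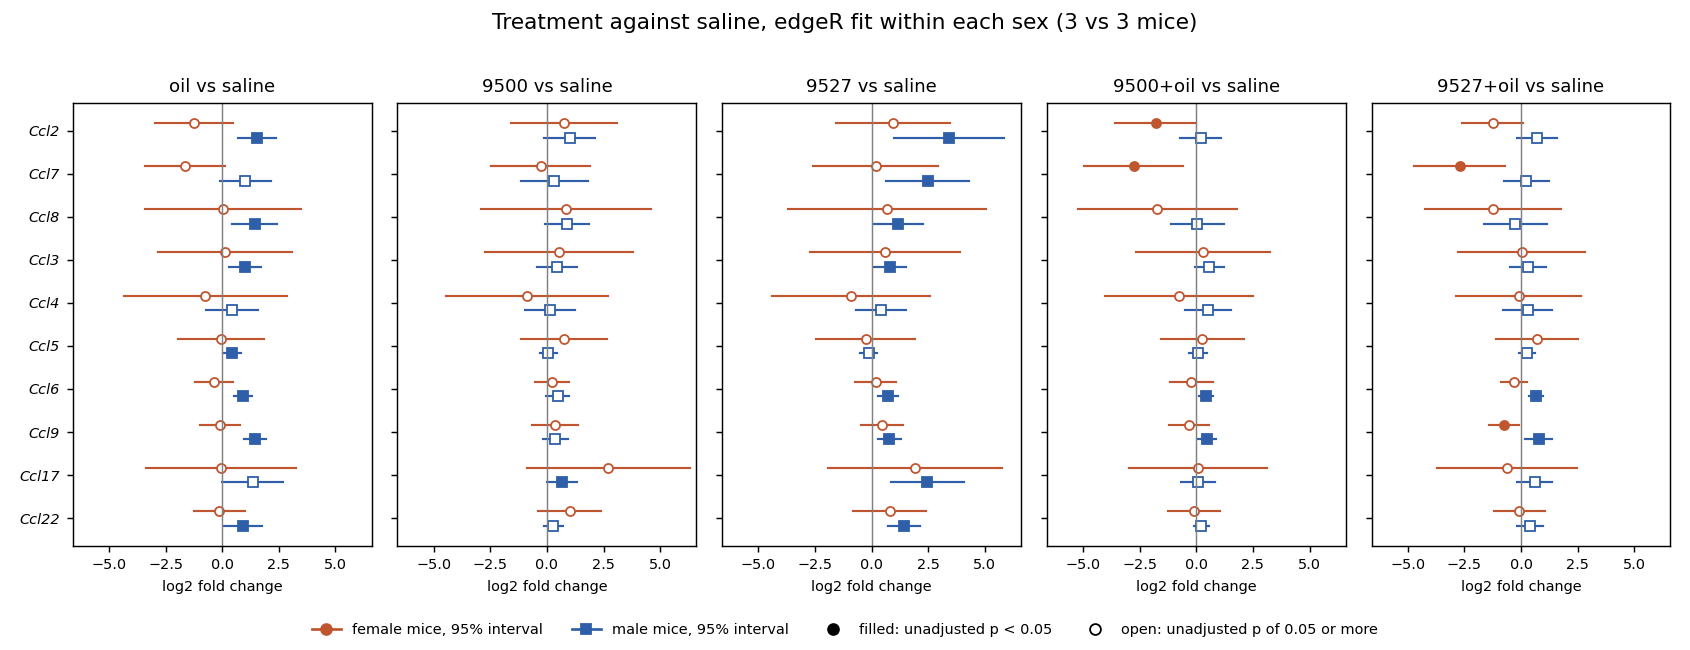
Log2 fold change of each member against saline, with its 95% interval, in 5 panels by treatment. Orange circles are females and blue squares males, each from a fit of 3 against 3 mice, and filled symbols have an unadjusted p under 0.05. Filled squares gather on the right in the oil panel (7) and the Corexit 9527 panel (8), and the filled circles (2 with 9500+oil and 2 with 9527+oil) lie on the left; Ccl7 was not tested in males with 9500+oil.

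Ccl2 and Ccl7 attract Ccr2-bearing monocytes. Ccl2 in male mice measured 0.945, 1.26 and 0.587 CPM with saline, 3.41, 2.18 and 2.54 with oil, and 1.85, 26.0 and 1.66 with Corexit 9527. Both treated groups lay wholly above saline, and mouse 11 of the Corexit 9527 group was far above all other mice. The log2 fold change was 1.54 ± 0.37 (SE) with oil (adjusted p = 0.319) and 3.41 ± 1.07 with Corexit 9527 (adjusted p = 0.213). Without mouse 11 the latter was 0.92, with an adjusted p of 0.532. In one fit of all 6 male groups, with mouse 11 included, it passed with an adjusted p of 0.0471, and DESeq2 gave it no p. Males given 9527+oil had 1.47, 1.43 and 1.64 CPM, which were also above the saline mice, with a log2 fold change of 0.71 ± 0.39 (adjusted p = 0.891). Corexit 9500 gave 0.930 to 3.05 CPM and 9500+oil 0.963 to 1.19 CPM, both overlapping saline.

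Ccl2 in females measured 1.38, 3.65 and 2.10 CPM with saline, 1.05, 0.595 and 0.475 with 9500+oil, and 1.01, 0.856 and 1.16 with 9527+oil. Neither mixture overlapped saline, and both were lower. The log2 fold changes were −1.79 ± 0.74 (adjusted p = 1) and −1.25 ± 0.55 (adjusted p = 0.914). Oil gave 0.646 to 1.55 CPM. With the dispersants alone the females spread widely, from 0.533 to 7.18 CPM with Corexit 9500 and from 0.788 to 10.6 CPM with Corexit 9527.

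Ccl7 was low in male lungs, at 0.348, 0.578 and 0.632 CPM with saline. Oil-treated males had 1.68, 0.894 and 0.662 CPM and those given Corexit 9527 had 0.951, 6.70 and 1.03 CPM. All 6 of these mice exceeded the saline mice, and the highest was again Corexit 9527 mouse 11. The log2 fold change was 1.03 ± 0.49 with oil (adjusted p = 0.652) and 2.47 ± 0.81 with Corexit 9527 (adjusted p = 0.231), which became 0.93 without mouse 11. DESeq2 gave the Corexit 9527 difference an adjusted p of 0.0417. The remaining male groups lay between 0.179 and 1.2 CPM and overlapped saline.

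Saline females had 1.26, 2.91 and 3.14 CPM of Ccl7, each above every saline male, but CPM was normalized within each table and this difference was not tested. Oil gave 0.487, 1.02 and 0.940 CPM, 9500+oil 0.293, 0.132 and 0.666, and 9527+oil 0.163, 0.214 and 0.735. None of these 9 females reached the lowest saline female. The log2 fold changes were −1.64 ± 0.73 with oil (adjusted p = 1), −2.77 ± 0.90 with 9500+oil (adjusted p = 1) and −2.71 ± 0.82 with 9527+oil (adjusted p = 0.914). Without 9500+oil mouse 15 the value was −3.53, and without 9527+oil mouse 18 it was −3.67. Ccl7 had rank 4 of 14792 genes by p with 9500+oil. Females given a dispersant alone overlapped saline, at 0.697 to 4.14 CPM with Corexit 9500 and 0.273 to 6.21 CPM with Corexit 9527.

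Ccl8 had 0.647, 1.05 and 0.406 CPM in saline males and 2.39, 1.90 and 1.43 CPM in oil-treated males. The oil mice lay wholly above saline, with a log2 fold change of 1.44 ± 0.43 (adjusted p = 0.408). Corexit 9527 gave 1.00, 1.85 and 1.91 CPM, which overlapped saline, and a log2 fold change of 1.18 ± 0.49 (adjusted p = 0.329). In females Ccl8 ran from 0 to 2.17 CPM with saline and from 0.0475 to 0.586 CPM over the 6 mice given a mixture with oil. No female comparison reached an unadjusted p under 0.05 for this gene with all libraries.

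Ccl3 (also called MIP-1 alpha), an attractant of monocytes and T cells, measured 1.69, 1.68 and 1.49 CPM in saline males, 2.19, 3.35 and 4.25 with oil, and 3.10, 3.25 and 2.12 with Corexit 9527. Both treated groups lay above saline. The log2 fold change was 1.01 ± 0.31 with oil (adjusted p = 0.417) and 0.80 ± 0.32 with Corexit 9527 (adjusted p = 0.306). The 9500+oil males, at 2.06, 3.00 and 2.24 CPM, did not overlap saline either, with a log2 fold change of 0.58 ± 0.29 (adjusted p = 0.566). Females ran from 0 to 2.43 CPM with saline and from 0.969 to 4.75 CPM over all treatments.

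Ccl5 (RANTES), which is made largely by T and NK cells, had 16.2, 11.9 and 15.7 CPM in saline males. With oil it had 22.0, 16.3 and 21.2 CPM, and the lowest of these lay just above the highest saline mouse. The log2 fold change was 0.44 ± 0.17 (adjusted p = 0.530). Males given 9527+oil had 19.6, 16.3 and 16.6 CPM, also above saline, with a log2 fold change of 0.26 ± 0.16 (adjusted p = 0.891). Corexit 9527 gave 11.7 to 14.3 CPM, and Ccl5 was the 1 member with a negative fold change there, −0.13 ± 0.16. Ccl4 (MIP-1 beta) reached an unadjusted p under 0.05 in no comparison within a sex, and it ran from 0.420 to 1.84 CPM in males and from 0 to 2.11 CPM in females.

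The Ccr1 ligands Ccl6 and Ccl9 had the smallest p values of the list in the comparisons within a sex, both in oil-treated males. Ccl6 had 158, 139 and 164 CPM in saline males, 238, 249 and 377 with oil, 211, 204 and 341 with Corexit 9527, 190, 183 and 249 with 9500+oil and 200, 251 and 284 with 9527+oil. Every mouse of these 4 treated groups lay above every saline mouse. Only Corexit 9500, with 143 to 292 CPM, overlapped saline among the male groups. The log2 fold changes were 0.90 ± 0.18 with oil (adjusted p = 0.236), 0.72 ± 0.19 with Corexit 9527 (adjusted p = 0.166), 0.43 ± 0.13 with 9500+oil (adjusted p = 0.506) and 0.67 ± 0.14 with 9527+oil (adjusted p = 0.885). DESeq2 called Ccl6 with oil (adjusted p = 0.000338), with Corexit 9527 (0.00802) and with 9527+oil (0.00631).

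Ccl9 had 24.1, 16.5 and 22.3 CPM in saline males and 46.9, 48.9 and 76.6 CPM in oil-treated males, with no overlap. Its log2 fold change with oil was 1.45 ± 0.22, a 2.74-fold difference, with rank 8 of 14914 genes by p (adjusted p = 0.169). DESeq2 gave it an adjusted p of 1.49e-07. Corexit 9527 males had 24.7, 38.6 and 45 CPM, just above saline, with a log2 fold change of 0.79 ± 0.23 (adjusted p = 0.184 by edgeR and 0.0274 by DESeq2). The mixtures gave 33.5, 22.8 and 30.2 CPM with 9500+oil (log2 fold change 0.46 ± 0.18, adjusted p = 0.520) and 22.8, 36.9 and 48.4 CPM with 9527+oil (0.78 ± 0.26, adjusted p = 0.885). In each mixture 1 mouse lay below the highest saline mouse.

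In females these genes did not stand above saline with oil. Ccl9 had 21.2, 26.1 and 21.2 CPM with saline and 13.0, 16.9 and 11.4 CPM with 9527+oil, wholly below. The log2 fold change was −0.75 ± 0.27 (adjusted p = 0.914). The value of saline mouse 3, a library rich in mitochondrial counts, rests on 182 counts and its small effective size. Ccl6 had 174, 187 and 123 CPM with saline and 126, 142 and 123 CPM with 9527+oil, with a log2 fold change of −0.32 ± 0.24 (adjusted p = 0.914). The other female groups overlapped saline for both genes, from 79.8 to 222 CPM of Ccl6 and from 13.6 to 45.5 CPM of Ccl9.

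The Ccr4 ligands were marked by single animals. Ccl17 had 1.59, 2.58 and 3.02 CPM in saline males, 4.6, 3.42 and 3.54 with Corexit 9500 and 2.80, 27.3 and 9.47 with Corexit 9527. Corexit 9500 did not overlap saline and Corexit 9527 did, through mouse 10. The log2 fold change was 0.68 ± 0.29 with Corexit 9500 (adjusted p = 0.782) and 2.46 ± 0.70 with Corexit 9527 (adjusted p = 0.179), or 1.35 without mouse 11. Oil-treated mouse 4 had 12.3 CPM, with 2.07 and 4.04 CPM in the other two.

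Ccl22 had 10.6, 14.5 and 11.6 CPM in saline males and 19.0, 48.7 and 29.6 CPM with Corexit 9527, with no overlap. The log2 fold change was 1.41 ± 0.31, a 2.67-fold difference (adjusted p = 0.114 by edgeR and 0.000238 by DESeq2), and it was 0.99 without mouse 11. Oil-treated males had 39.3, 13.1 and 16.8 CPM, with a log2 fold change of 0.91 ± 0.37 (adjusted p = 0.564) that was 0.30 without mouse 4. Females were as uneven. Corexit 9500 mouse 7 had 43.5 CPM of Ccl17 and 54.3 CPM of Ccl22, and Corexit 9527 mouse 10 had 26.2 and 58.3 CPM, while saline females ran from 0 to 4.89 CPM of Ccl17 and from 8.27 to 27.7 CPM of Ccl22. In females Ccl17 had a log2 fold change of 2.71 ± 1.51 with Corexit 9500, a 6.54-fold difference, and 1.12 without mouse 7. It was 1.92 ± 1.59 with Corexit 9527 and 0.12 without mouse 10 (adjusted p = 1 for both with all libraries). No female comparison reached an unadjusted p under 0.05 for either gene with all libraries.

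The same few animals were high for several members. Female Corexit 9500 mouse 7 was the highest of 18 females for Ccl3, Ccl5, Ccl8, Ccl9 and Ccl17, and Corexit 9527 mouse 10 for Ccl2, Ccl6, Ccl7 and Ccl22. Male Corexit 9527 mouse 11 was the highest of 18 males for Ccl2, Ccl7, Ccl17 and Ccl22, and the 3 oil-treated males took the other 6 first places. Without male mouse 11, 4 members in place of 8 reached an unadjusted p under 0.05 with Corexit 9527 (10.9% of all genes in that fit), and without male saline mouse 1 there were 5 (12.4%).

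**Figure D3:**
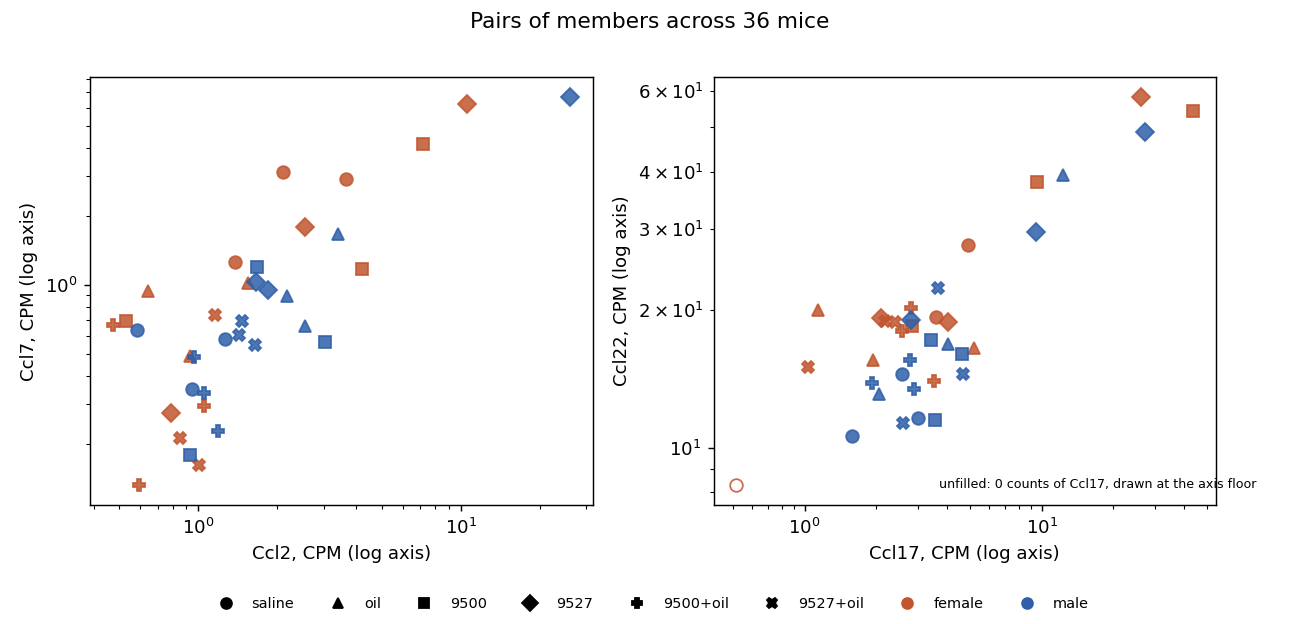
Ccl7 against Ccl2 (left) and Ccl22 against Ccl17 (right), each point 1 mouse, in CPM on log axes, with colour for sex and shape for treatment. Both pairs rise together, and the upper right corners hold mice given a dispersant without oil, 10.6 and 26.0 CPM of Ccl2 at the far end on the left.

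Across the 18 mice of a table, log2 levels of Ccl17 and Ccl22 had a Pearson r of 0.889 in females and 0.901 in males, and those of Ccl2 and Ccl7 0.811 and 0.848. Without the 4 libraries rich in mitochondrial counts the female values were 0.871 and 0.842. The points of each coefficient share their libraries, their depth and their treatments. Of 13878 genes other than the members, Timp1, an inhibitor of matrix metalloproteinases, was most like Ccl2 (r = 0.918 in females and 0.892 in males), followed by the neutrophil attractant Cxcl1 (0.850 and 0.869). Mgl2, a lectin of macrophages and dendritic cells, was the most like Ccl22 among them (0.836 and 0.817). None of them reached 0.8 in both tables for the other 8 members.

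The 4 libraries rich in mitochondrial counts bear on the female counts. Without them, with 9527+oil 6 members reached an unadjusted p under 0.05 in place of 2, where 12.3% of all genes did in that fit, all lower: Ccl2 (−1.32 ± 0.44), Ccl6 (−0.47 ± 0.11), Ccl7 (−2.50 ± 0.67), Ccl8 (−1.74 ± 0.59), Ccl9 (−0.78 ± 0.18) and Ccl17 (−1.17 ± 0.37, log2 fold changes ± SE). With 9500+oil there were 4 in place of 2, against 1.24% of all genes, also lower: Ccl2 (−1.72 ± 0.64), Ccl7 (−2.13 ± 0.65), Ccl8 (−2.48 ± 0.92) and Ccl9 (−0.60 ± 0.21). With oil, Ccl7 reached it (−1.47 ± 0.62, adjusted p = 1), as did 0.959% of all genes. For the dispersants alone the largest difference in size was that of Ccl17, at 2.14 ± 1.10 with Corexit 9500 (adjusted p = 1) and 1.84 ± 0.77 with Corexit 9527 (adjusted p = 0.977). The lowest adjusted p of the members was 0.314 with 9527+oil and 1 with 9500+oil and oil.

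The next question was whether the effect of a treatment differed between the sexes. It was addressed with an interaction term, where a positive value means a higher male fold change. Oil gave 4 members with an unadjusted p under 0.05, against 1.65% of all genes: Ccl2 (2.72 ± 0.74), Ccl6 (1.22 ± 0.41), Ccl7 (2.62 ± 0.81) and Ccl9 (1.5 ± 0.42). With 9527+oil the same 4 did so, against 2.39% of genes: Ccl2 (1.95 ± 0.62), Ccl6 (0.99 ± 0.27), Ccl7 (2.94 ± 0.88) and Ccl9 (1.52 ± 0.40). All 8 values were positive. Every treated female lay below and every treated male above the saline mice of the same sex for Ccl7 with oil (0.164% of genes tested in both sexes) and for Ccl2 with 9527+oil (0.253%). Without female 9527+oil mouse 18 the value of Ccl7 was 3.90. The oil and 9527+oil interactions share their saline mice. Ccl2 (1.93 ± 0.74) and Ccl7 (2.10 ± 0.92) did so with 9500+oil (0.509% of genes), where Ccl7 was 2.86 without female mouse 15 and 1.53 ± 0.84, no longer at that p, without the 4 libraries, and no member did with Corexit 9500 (0.726%) or Corexit 9527 (0.352%). The 9500+oil count was 0 without female saline mouse 2 (1.79%) or male saline mouse 3 (0.342%), and the Corexit 9527 count was 2 without female mouse 10 (1.18%). The share of all genes called was 0% in all 5 interactions, edgeR called no member (lowest adjusted p = 0.948), and neither did DESeq2. Without the 4 libraries 7, 6 and 6 members reached that p with oil, 9500+oil and 9527+oil, against 5.98%, 2.63% and 6.73% of all genes in these fits, and the smallest was that of Ccl6 with 9527+oil (1.15 ± 0.18, adjusted p = 0.300).

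Over both sexes, with a term for sex, edgeR and DESeq2 called no member against saline. Corexit 9527 gave 4 members with an unadjusted p under 0.05 (2.87% of all genes, 0.0331% called), all higher: Ccl2 (2.15 ± 0.92), Ccl9 (0.62 ± 0.22), Ccl17 (2.18 ± 0.87) and Ccl22 (1.10 ± 0.39), each with an adjusted p of 1. Without the 4 libraries Ccl6 joined them (0.53 ± 0.15), against 15.7% of all genes, and the lowest adjusted p was 0.0871, of Ccl17. Without female mouse 10 only 1 member, Ccl9, reached that p (2.64% of all genes in that fit) and Ccl17 was 1.48. Without male mouse 11 there were 2 (1.87%) and Ccl2 was 0.94, and without male saline mouse 1 (2.24%) or mouse 2 (2.07%) there were also 2. Oil gave Ccl9 alone (0.69 ± 0.31, against 0.435% of genes), which was lost without any 1 of 8 of the 12 mice, and 9500+oil gave Ccl7 alone, which was lower (−1.67 ± 0.56, against 0.391%). No member reached that p with Corexit 9500 (2.26% of genes) or 9527+oil (2.94%), and 0% of genes were called with these 4 treatments. Without the 4 libraries Ccl17 reached it with Corexit 9500 (1.34 ± 0.60, adjusted p = 0.867), as did 5.65% of all genes. Without female Corexit 9500 mouse 8 there were 3 members with that treatment (2.12%).

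The dispersants could be compared directly with each other, 6 mice against 6. Corexit 9527 and Corexit 9500 did not differ at an unadjusted p under 0.05 for any member (3.31% of all genes did, and 0% were called), and DESeq2 called none. Without female Corexit 9500 mouse 7 (3.77%) or female Corexit 9527 mouse 10 (6.08%) 1 member reached it, Ccl7 and Ccl5 in turn. The log2 difference, Corexit 9527 minus Corexit 9500, was 1.30 for Ccl2 with a 95% interval of −0.73 to 3.34, 1.29 for Ccl7 (−0.54 to 3.12) and 0.48 for Ccl17 (−1.45 to 2.41). The intervals of these 3 genes are the widest and reach past 2 on the log2 scale. Those of Ccl8 (0.08, −1.59 to 1.75), Ccl4 (0.12, −1.04 to 1.28) and Ccl3 (0.19, −0.80 to 1.18) come next in width. The difference was bounded more closely for Ccl6 (0.10, −0.39 to 0.59), Ccl9 (0.26, −0.35 to 0.86), Ccl22 (0.46, −0.43 to 1.35) and Ccl5 (−0.59, −1.33 to 0.14). Without male Corexit 9527 mouse 11 the difference was 0.09 for Ccl2, 0.53 for Ccl7 and −0.13 for Ccl17, and those of Ccl4, Ccl6 and Ccl8 also changed sign with single mice left out.

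The mixtures with oil were set against their dispersants alone, again 6 mice against 6, and Ccl2, Ccl7, Ccl8 and Ccl17 stood lower with oil in both cases. Against Corexit 9500 alone, 9500+oil was lower for Ccl2 (−1.63 ± 0.58), Ccl7 (−1.67 ± 0.64), Ccl8 (−1.64 ± 0.69) and Ccl17 (−1.64 ± 0.58), each at an unadjusted p under 0.05 and an adjusted p of 0.999 (1.95% of all genes, 0% called). Without female Corexit 9500 mouse 7, Ccl8 was −0.73, Ccl17 −0.82, Ccl7 −1.10 and Ccl2 −1.22, and 2 members reached that p (2.2% of all genes in that fit). There were also 2 without female 9500+oil mouse 13 (2.4%) or male Corexit 9500 mouse 7 (1.33%). Without female 9500+oil mouse 14, the library rich in mitochondrial counts here, Ccl8 (−1.60 ± 0.78) no longer reached it. Against Corexit 9527 alone, 9527+oil was lower for Ccl2 (−2.44 ± 0.75, adjusted p = 0.217), Ccl7 (−2.55 ± 0.75, 0.196), Ccl8 (−1.67 ± 0.68, 0.319), Ccl17 (−2.18 ± 0.65, 0.205) and Ccl22 (−0.94 ± 0.33, 0.273) and higher for Ccl5 (0.68 ± 0.29, 0.332), where 14.2% of all genes reached an unadjusted p under 0.05 and 0.579% were called. DESeq2 called Ccl2 (adjusted p = 0.0170), Ccl7 (0.0148) and Ccl17 (0.0162), and 3.81% of all genes. Without female Corexit 9527 mouse 11, which is the 1 library rich in mitochondrial counts in this comparison, edgeR called Ccl8 (−1.90 ± 0.46, adjusted p = 0.0309) and Ccl17 (−2.38 ± 0.57, 0.0308). In that fit 6.82% of all genes were called. Without male Corexit 9527 mouse 11, Ccl2 was −1.36. Without female Corexit 9527 mouse 10, Ccl7 was −1.87, Ccl8 −1.02 and Ccl17 −1.38, and 4 members reached an unadjusted p under 0.05, against 18.7% of all genes in that fit.

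**Figure D4:**
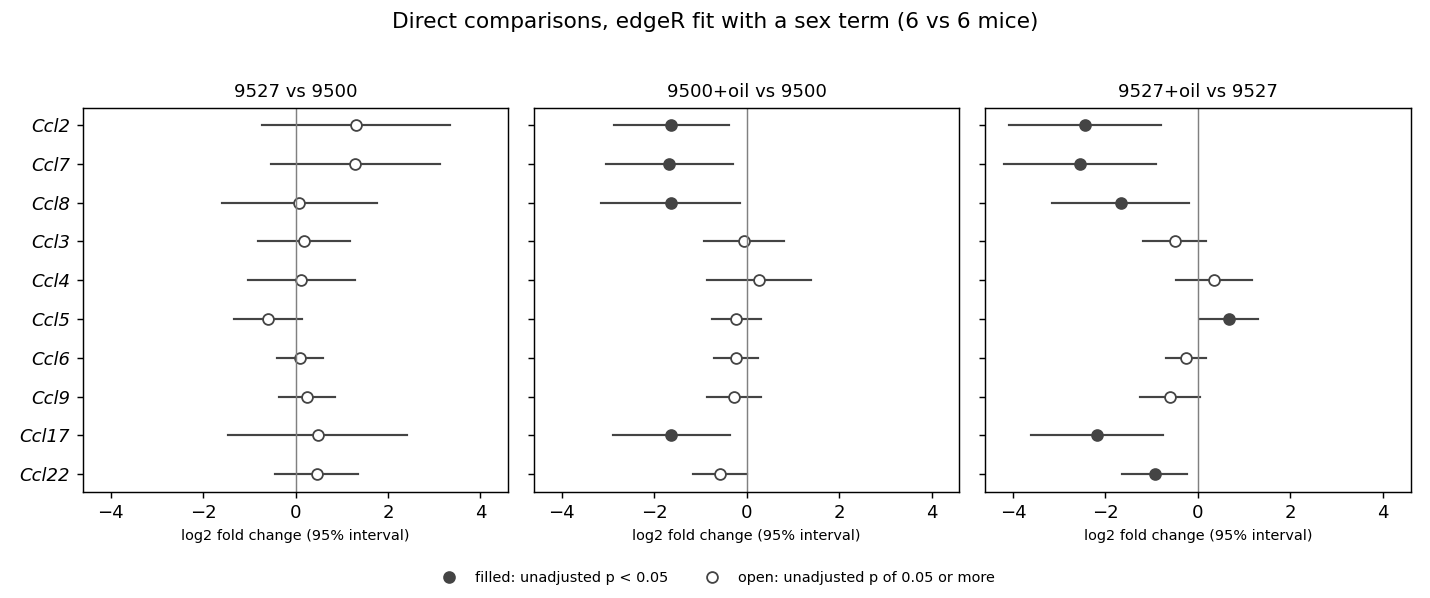
Log2 difference of each member between treatments over both sexes, with its 95% interval, from fits of 6 against 6 mice with a term for sex. Filled symbols have an unadjusted p under 0.05. All intervals of the left panel cross 0, while Ccl2, Ccl7, Ccl8 and Ccl17 lie to the left of 0 in the other panels and Ccl5 to the right of it in the last.

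Receptors were read from a list of 15 CC chemokine receptors, decoy receptors included, of which 12 to 14 were tested in a comparison. Oil-treated males had 3 of 12 with an unadjusted p under 0.05, all higher (8.21% of all genes), and males given Corexit 9527 had 2 higher and 2 lower of 13 (13.7% of all genes), and edgeR called none. Ccr1, the receptor of Ccl6 and Ccl9, measured 12.7, 14.6 and 16.1 CPM in saline males, in ascending order, and 19.4, 29.6 and 62.4 CPM with oil, with no overlap and a log2 fold change of 1.36 ± 0.37 (adjusted p = 0.353). It was 1.38 ± 0.44 with 9527+oil and 0.70 ± 0.20 with Corexit 9527 in males, and −0.76 ± 0.27 with 9527+oil in females. Its interaction of sex and treatment was 1.97 ± 0.55 with oil and 2.14 ± 0.59 with 9527+oil, with adjusted p values of 1 and 0.948. Ccr2, the receptor of Ccl2 and Ccl7, had 32.3, 65.8 and 70.5 CPM in saline males and 69.3, 133 and 174 with oil, which overlapped (1.15 ± 0.36, adjusted p = 0.427). Ccr4 was low throughout, at 0 to 2.60 CPM over all mice, as was Ccr8, at 0.149 to 2.22 CPM.

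Of 14 other CC chemokines listed, 12 were in the tables and 6 to 9 were tested in a comparison. Ccl11, the eosinophil attractant eotaxin, was higher with Corexit 9527 in males (1.43 ± 0.57, adjusted p = 0.314) and lower with 9527+oil in females (−1.91 ± 0.63, adjusted p = 0.914). Ccl21b, a ligand of Ccr7 with near-identical gene copies among which reads can be split, was lower in males with oil (−1.03 ± 0.44, adjusted p = 0.594) and with 9527+oil (−1.19 ± 0.50, adjusted p = 0.885). None of these chemokines was called in a comparison within a sex. Of 18 inducers and regulators of chemokine genes, 14 were tested within each sex. Tnf, which induces many of them through NF-kB, was higher in males with oil (0.97 ± 0.37, adjusted p = 0.531) and with Corexit 9527 (0.91 ± 0.38, adjusted p = 0.337). The 1 gene called on these lists in any comparison was the alarmin Il33, which fell by 1.33 ± 0.22 on the log2 scale with 9527+oil against Corexit 9527 alone (adjusted p = 0.0262). Ccr2, Ccr4, Ccr8 and Il33 lie outside the rule for naming genes of these lists and were chosen after their values were seen.

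Markers of cells that make or answer to these chemokines moved with some of the results. Their counts at an unadjusted p under 0.05 stand against 8.21% of all genes with oil, 13.7% with Corexit 9527 and 5.54% with 9527+oil in males. Of 9 monocyte and interstitial macrophage markers tested in oil-treated males, 8 were higher at an unadjusted p under 0.05, and their summed level was 495 to 634 CPM against 331 to 406 CPM with saline. Neutrophil markers (5 of 8 higher) summed to 392 to 1120 CPM against 305 to 320, dendritic cell markers (4 of 8 higher) to 276 to 305 CPM against 208 to 245, and alveolar macrophage markers (5 higher and 1 lower of 10) to 1150 to 1250 CPM against 850 to 1100. With Corexit 9527 in males, alveolar macrophage markers (5 of 10 higher) summed to 1080 to 1920 CPM and neutrophil markers to 124 to 284 CPM (1 of 8 lower, a share near that of all genes). In females the alveolar macrophage sum was 856 to 1520 CPM with saline, 1560 to 2560 with Corexit 9527 and 632 to 650 with 9527+oil. Chil3, one of these markers, averaged 355, 1180 and 237 CPM in these 3 groups. Marco averaged 32.5, 36.1 and 24.7 CPM, Fabp4 17.9, 19.5 and 12.2, Mrc1 132, 159 and 57.3, and Ear2 92.2, 149 and 45.4. In males Chil3 averaged 428 CPM with saline and 812 with Corexit 9527, and Marco 18.7 and 51.4. Male 9527+oil lungs had 273, 1070 and 1420 CPM of neutrophil markers (7 of 8 higher and 1 lower). The first of these, mouse 16, lay below all saline males. T and NK cell markers summed to 61.8 to 176 CPM and B cell markers to 60.2 to 316 CPM over all mice, with 1 of 9 T and NK cell markers higher in oil-treated males, also near the share of all genes, and no B cell marker at an unadjusted p under 0.05 in any comparison within a sex. Eosinophil and basophil markers summed to 0 to 2.52 CPM, with Epx at 0 in all mice of 3 male groups. Saline female mouse 3, the lowest for several members, had 54.9 CPM of monocyte and interstitial macrophage markers, where the highest saline female had 345 CPM. The part of these cells in the chemokine levels was not tested.

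**Figure D5:**
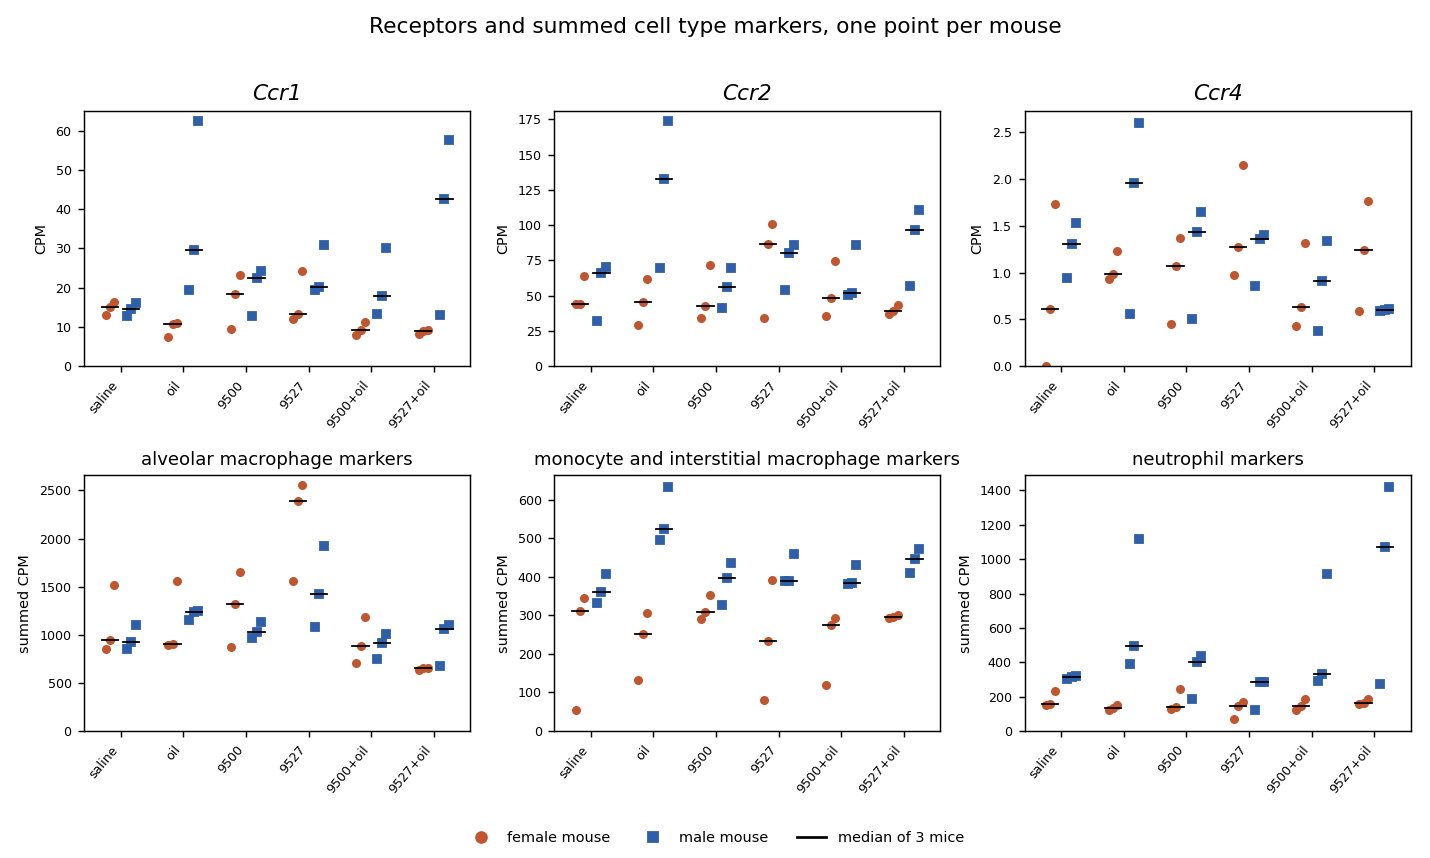
Receptors Ccr1, Ccr2 and Ccr4 (top, CPM) and summed markers of alveolar macrophages, monocytes with interstitial macrophages, and neutrophils (bottom, summed CPM) in every mouse, by treatment and sex, with black bars for the median of 3 mice. Oil-treated males lie above saline males for Ccr1 (19.4 to 62.4 against 12.7 to 16.1 CPM) and all 3 marker sums. Ccr4 stays at or under 2.60 CPM in all mice. Female alveolar macrophage sums, which include Chil3, have their highest median with Corexit 9527.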

How the data were processed

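Left-lung RNA of 36 mice was sequenced from stranded mRNA libraries. The authors quantified reads with Salmon (version not given in the sources used here) against Ensembl transcripts of GRCm38 and deposited expected counts per gene, whole numbers, in 1 table for females and 1 for males. Of 18120 and 18295 rows, 4 in each table shared a name and were left out, and 24 in each carry date-like names. Depth was 17501180 to 30011557 counts per library, which limits the members near 1 CPM most. Effective size differed more than total counts. In female saline mouse 3, with 17501180 counts, 182 counts of Ccl9 gave 21.2 CPM. In female saline mouse 1, with 21678336 counts, the same 21.2 CPM stood for 523 counts. No library was a copy of another (lowest chi-square per gene 11.3 over the pairs of a table).

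Counts were fitted with edgeR 4.0.16 in R 4.3.3 (filterByExpr, TMM, quasi-likelihood test, limma 3.58.1) within each sex, over both sexes with a term for sex, as the interaction of sex and treatment, and between treatments. P-values were adjusted over all genes by Benjamini-Hochberg, and an adjusted p under 0.05 was a call. CPM used effective library sizes. The procedure was run on simulated counts with the same relative spread for every gene. They held no outlying mice or mitochondria-rich libraries, so that run does not cover such cases. Alternatives were DESeq2 1.42.0, other size factors, no filter, all 6 groups in one fit, no library over 20% mitochondrial, each mouse left out, and the replicate block. All comparisons with saline of a sex share its 3 saline mice, and the fits over both sexes use the same mice again.

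Members and lists were chosen with earlier results of these data known. All members are named, with values for each mouse where a comparison within a sex had an unadjusted p under 0.05, and with fold changes where that held or mice did not overlap. Other genes of the pathway are named where it held in 2 or more of the 10 comparisons within a sex, and genes with a like pattern where the lower r was at least 0.8. Sequences are from GENCODE M21 and RefSeq. The values of 1 gene of these lists and 1 sequence are not reported here.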

Additional observations from a re-analysis of the deposited data

Results flagged for a closer look

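For 2 member and treatment pairs, every treated female lay below every saline female while every treated male lay above every saline male. Of the genes tested in both sexes, 0.164% did so with oil and 0.253% with 9527+oil. The first was Ccl7 with oil. Treated females had 0.487 to 1.02 CPM against 1.26 to 3.14 CPM with saline, and treated males 0.662 to 1.68 CPM against 0.348 to 0.632 CPM. The interaction of sex and treatment was 2.62 ± 0.81 on the log2 scale (SE), with an adjusted p of 1 by edgeR's quasi-likelihood test.

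The other was Ccl2 with 9527+oil. Treated females had 0.856 to 1.16 CPM against 1.38 to 3.65 CPM, and treated males 1.43 to 1.64 CPM against 0.587 to 1.26 CPM. The interaction was 1.95 ± 0.62 (adjusted p = 0.948). Saline females were above saline males for both genes (Ccl2 1.38 to 3.65 against 0.587 to 1.26 CPM), a difference that was not tested, and sex cannot be told apart from the separate treatment of females and males.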

How the results depend on the processing

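No member was called in any of the 23 comparisons as reported. No log2 fold change printed in the text for a member against saline from all libraries changed sign under an alternative. Nor did those printed for the interactions or for the mixtures against their dispersants. Some female values shown only in the plot of fold changes against saline did so without the mitochondria-rich libraries. Ccl3 went from 0.55 to −0.017 with Corexit 9500 and from 0.59 to −0.10 with Corexit 9527. With oil it went from 0.11 to −0.615, with 9500+oil from 0.31 to −0.49 and with 9527+oil from 0.034 to −0.51. Ccl17 with 9500+oil went from 0.062 to −0.42 and Ccl8 with oil from 0.050 to −0.091. Between Corexit 9527 and Corexit 9500, single mice left out took Ccl4 from −0.22 to 0.55, Ccl6 from −0.046 to 0.21, Ccl8 from −0.50 to 0.95 and Ccl17 from −0.13 to 1.33, and the other 6 members kept their sign. DESeq2's Wald test called 2 members with oil, 4 with Corexit 9527 and 1 with 9527+oil in males, and 3 for 9527+oil against Corexit 9527. One fit of all 6 male groups called 1 with Corexit 9527, and leaving out the libraries over 20% mitochondrial called 2 for 9527+oil against Corexit 9527. With single mice left out, the calls ranged from 0 to 1 for 9527+oil in males (1 without mouse 16, Ccl6, adjusted p = 0.0303) and from 0 to 2 for 9527+oil against Corexit 9527 (2 without female mouse 11), and stayed 0 elsewhere. With mouse numbers as a replicate block across sexes, 0 members were called in all 5 interactions, and the count at an unadjusted p under 0.05 with 9500+oil went from 2 to 0. These numbers pair no animals, since females and males are separate mice.

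Counts at an unadjusted p under 0.05 moved more. With single mice left out they ranged from 5 to 8 for oil and 4 to 7 for Corexit 9527 in males, 0 to 5 for Corexit 9500 in males, 0 to 3 for 9500+oil and 0 to 6 for 9527+oil in females (0 without saline mouse 2 and 3 and 6 without saline mouse 3), and 1 to 5 for Corexit 9527 over both sexes. The share of all genes at that p also moved with single mice left out, as given above for several of these fits. It is not given for oil, so these ranges alone are no result about the members. Over all genes edgeR called 17 with Corexit 9527 in males, against 572 by DESeq2, 70 without a filter and 284 in one fit of all groups. It called 1 with oil in males (173 by DESeq2, 2 without a filter, 0 in one fit), 1 with Corexit 9500 (48 by DESeq2, 0 in one fit), 0 with 9500+oil (51 by DESeq2) and 1 with 9527+oil (23 by DESeq2, 0 in one fit). Over both sexes Corexit 9527 gave 5, against 124 by DESeq2, 107 in one fit, 343 without the mitochondria-rich libraries, 3 without the sex term and 2 with DESeq2's size factors or without a filter. EdgeR called 88 for 9527+oil against Corexit 9527 (606 by DESeq2, 159 in one fit and 1050 without the mitochondria-rich library). In the other 16 comparisons it called 0 and DESeq2 1 to 17, while one fit of all groups called 1 for Corexit 9500 over both sexes and for 9500+oil against Corexit 9500. Without the mitochondria-rich libraries it called 2 with 9527+oil in females and 1 in the oil and 9527+oil interactions. The cause of these differences was not tested. Depth limits the members near 1 CPM.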
